A study of Mus musculus with 4 samples.

Results

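Zbtb22, Fam109a, Adamtsl5 and Mif are 4 of the 21418 autosomal protein-coding genes of the GENCODE M1 annotation. The study followed them up as genes that lost methylation outside CpG islands (CGIs, stretches dense in CpG) while colonic intestinal stem cells (ISCs) matured. It also measured a region of each by bisulfite pyrosequencing, at further ages and in both populations. The study reports that these measurements bore out its sequencing result in all cases. It describes the methylation course as nearly identical in the 2 populations. Which of the bins below hold the measured regions was not determined here, so the bins do not test that result. The genes were selected on a loss from postnatal day 0 (P0) to postnatal day 21 (P21) in the 2 ISC libraries. Every value of that contrast below, the balance of losses and gains included, is a description. Each gene was read from 5 kb upstream to 5 kb past its ends, over every CpG and every 200-bp bin. The 4 windows held 1512 CpGs and 241 tested bins of the 4076373 autosomal bins tested.

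Whole-genome bisulfite sequencing was done on colon cells of C57 mice from crosses of wild-type mice with the Lgr5-EGFP-CreER line, in which Lgr5 regulatory sequences drive EGFP and an inducible Cre. ISCs were sorted as Lgr5-EGFP positive, and differentiated epithelial cells as EpCAM positive and Lgr5-EGFP negative, at P0 and at P21. Each of the 4 groups was 1 library, made from pooled litters at P0 and from pooled reporter-positive offspring at P21, so no difference could be set against the spread between mice, and a difference between pools and a difference between ages cannot be told apart. The files hold methylation and no expression, so the sorted cell types were not checked against marker transcripts. The median number of calls per tested bin in the 4 windows was, at P0, 92 for ISCs and 176 for differentiated cells, and at P21 107 and 151. Over all tested autosomal bins it was 55 and 81 at P0 and 58 and 68 at P21. Intervals cover counting error only and, like the tests, treat every call as independent. Calls at several CpGs of the same read and PCR copies of a molecule are not independent. The intervals can therefore be too narrow and the adjusted p too small.

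Cytosine methylation at CpGs is set by DNA methyltransferases and copied at cell division, so a stem cell hands its pattern on to its progeny. CGIs at gene starts are usually unmethylated, most of the remaining genome is methylated, and the shores between them, here the bins within 2000 bp of a CGI, often hold intermediate levels. The 4 genes have unrelated products. Zbtb22 encodes a BTB domain zinc finger protein, Fam109a an endosomal adaptor that binds the phosphoinositide phosphatase OCRL, Adamtsl5 a secreted matrix protein related to the ADAMTS proteases but without their catalytic domain, and Mif the cytokine macrophage migration inhibitory factor.

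The starts of Zbtb22, Fam109a and Mif lay in unmethylated CGIs at both ages. The level over the CGI bins at the start was at most 1.10% for Zbtb22, at most 1.13% for Fam109a and at most 2.62% for Mif in the 4 libraries. The Adamtsl5 start CGI was higher, where ISCs had 16.9% at P0 and 16.2% at P21, and differentiated cells 11.4% and 15.6%. A CGI over the coding part of exon 4 of Fam109a was methylated in every library, from 90.5% to 94.2%. Outside CGIs the mean level of the bins was lowest in the Fam109a window (50.2% in ISCs and 51.0% in the differentiated library at P0, then 47.7% and 44.5% at P21) and highest in the Mif window (76.9%, 78.2%, 80.2% and 77.5% in the same order). The Adamtsl5 window had 55.7%, 56.6%, 57.2% and 57.2%, and the Zbtb22 window 73.8%, 73.2%, 72.0% and 73.1%. Over all autosomal bins outside CGIs these means were 78.7%, 78.6%, 78.4% and 77.9%, so each window lay below the genome in every library, except that of Mif in ISCs at P21. The mean moved with age by no more than 6.53 points in any window, while the SD over bins of the ISC change lay between 8.88 and 17.0 points outside CGIs.

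**Figure D1:**
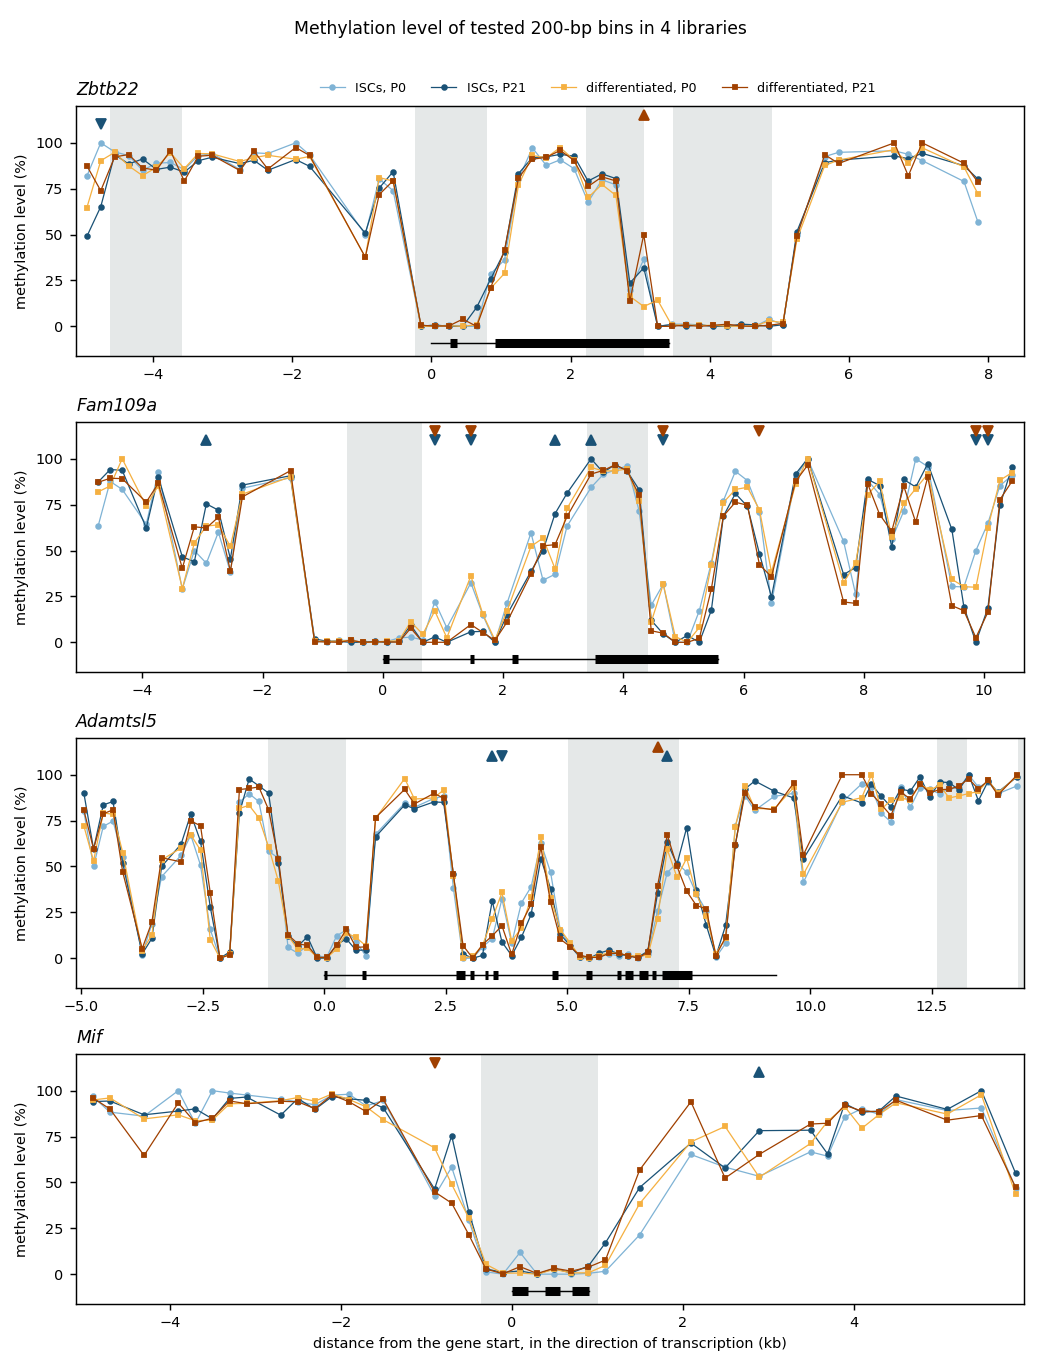
Methylation level in percent (y axis) of each tested 200-bp bin against the distance of its centre from the gene start in kb (x axis), with 1 panel per gene and 1 line per library. Grey bands are CGIs, black bars exons and the thin line the gene, and triangles point up or down where a bin was called as a gain or loss with age in ISCs (blue) or in differentiated cells (brown). The 4 lines run together over most of each window, and the called losses cluster in the Fam109a window.

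Single bins departed from these means in both directions. In ISCs 17 of the 241 bins lost more than 15 points with age and 19 gained more than 15 points, 7.05% and 7.88% of the bins, beside 7.14% and 6.31% of all autosomal bins. CGI bins were 64 of the 241, and outside CGIs the shares were 9.60% and 9.04%, beside 7.36% and 6.45% of the 3931203 autosomal bins there. The balance depended on the bins used, with 2 losses and 10 gains among bins of at least 4 CpGs and 3 losses and 8 gains in 400-bp bins. Fam109a held 11 of the losses and 9 of the gains, Adamtsl5 had 3 losses and 5 gains, Mif 1 loss and 4 gains, and Zbtb22 2 losses and 1 gain. Of the 36 bins, 33 lay outside CGIs and 24 in shores. Shores held 125 of the 241 bins, and 9.6% of these lost and 9.6% gained, beside 7.39% and 7.13% of all autosomal shore bins. The bins nearest the limit were a loss of 15.1 points in Adamtsl5 and one of 15.4 points in Fam109a, equal to that of the only Mif loss, just inside it, and a gain of 14.7 points and a loss of 14.1 points, both in Fam109a, just outside. A bin was called when the difference was more than 15 points and the adjusted p of its calls was below 0.05 (Fisher's exact test, two-sided, Benjamini-Hochberg adjustment over all autosomal bins). This test compares 2 libraries, not the conditions. By this rule 7 losses and 6 gains were called in ISCs, 2.90% and 2.49% of the bins, beside 1.48% and 1.07% of all bins, which had fewer calls, and outside CGIs 3.95% and 2.26%, beside 1.52% and 1.06%. At least 1 called ISC loss outside CGIs was present in 60.4% of 18113 gene windows built the same way, and at least 1 loss of more than 15 points in 94.7%. Those windows had at least 20 tested bins outside CGIs, with a median of 69. The windows of Zbtb22, Fam109a, Adamtsl5 and Mif had 31, 53, 61 and 32, and a window with more bins has more occasions to hold such a loss. Such bins were thus common, and whether their presence set the 4 genes apart was not tested at equal numbers of bins.

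The study gives the ISC loss as the change of these genes and does not say whether the differentiated libraries also entered the selection. Whether both populations of an age came from the same mice is not stated, so a difference between pools could appear in both. The differentiated libraries measured the change with age at the same bins in separate reads. In them 15 of the 241 bins lost and 8 gained more than 15 points, beside 7.08% and 4.92% of all autosomal bins. Of the 241 bins, 7 losses and 2 gains were called, 2.90% and 0.830%, beside 1.86% and 0.992% of all autosomal bins. Of the 17 ISC losses 14 were also lower at P21 in differentiated cells, 82.4% of them beside 68.9% of all such autosomal bins, and the median change there was -16.3 points beside -6.62 points. Of the 19 ISC gains 11 were higher at P21 in differentiated cells, 57.9% beside 59.8%, with a median change of 2.88 points beside 2.96. In shores these were 10 of 12 losses, beside 14137 of 19313 in all autosomal shores, and 7 of 12 gains, beside 12765 of 18635. The autosomal bins had fewer calls than the windows and were not matched for depth. The losses were carried by the Fam109a window, where 11 of 11 were lower in differentiated cells, while the windows of the other 3 genes gave 1 of 2, 2 of 3 and 0 of 1. A loss was called in both populations in 5 of the 241 bins, each of them in the Fam109a window, beside 0.673% of all autosomal bins. No gain was called in both, beside 0.255% of all autosomal bins. Of the 9 bins called in differentiated cells, the one at chr5:122309001-122309200 alone kept its call under every alternative tested for it, and the other 8 lost it under at least 1 of a shifted bin, 1 strand alone or calls thinned to the lowest library.

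**Figure D2:**
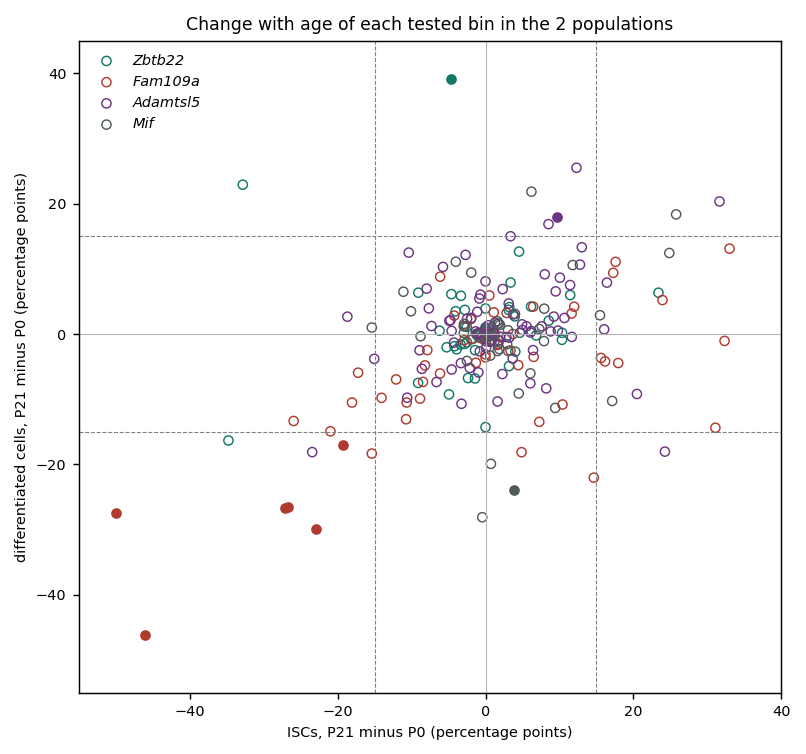
Change from P0 to P21 in ISCs (x axis) and in differentiated cells (y axis), in percentage points, of each of the 241 tested bins, coloured by gene. Filled circles were called in differentiated cells and dashed lines mark 15 points. The losses of the Fam109a window run down along the diagonal, and few bins of the other windows pass 15 points in both populations.

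Fam109a (ENSMUSG00000044134.5) lies on the plus strand of chr5:122299037-122304608 in mm9, with 4 exons and 64 tested bins in its window.

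A bin around exon 2, which holds part of the 5' UTR, at chr5:122300401-122300600, carried a loss called in both populations, which with the bin moved up by 100 bp was -18.3 and -18.2 points and called in both, and with the bin moved down was -11.4 and -19.3 points and called in neither (ISCs first). Its level fell in ISCs from 32.4% (71 calls, 95% Wilson interval 22.7 to 43.9%) to 5.74% (122 calls, 2.81 to 11.4%). In differentiated cells it fell from 36.2% (105 calls, 27.6 to 45.7%) to 9.68% (93 calls, 5.18 to 17.4%), a change of -26.5 points (95% Newcombe interval -37.1 to -15.0, Fisher's exact test, adjusted p = 0.000825). Each of its 5 CpGs and both strands were lower at P21 in both populations. The flanks, the tested bins within 1000 bp on either side, changed by -7.24 points in ISCs and -6.37 in differentiated cells.

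Another loss lay in the 3' UTR, at chr5:122303601-122303800, 147 bp past the methylated CGI. ISCs went from 31.7% (41 calls, 19.6 to 47.0%) to 4.55% (44 calls, 1.26 to 15.1%), and differentiated cells from 31.7% (120 calls, 24.0 to 40.4%) to 4.96% (121 calls, 2.29 to 10.4%). The ISC loss was read on the bottom strand (44% to 0 of 20 calls), with 12.5% and 8.33% on the top strand, and with thinned calls it kept its size (-26.8 points) but not its call. With the bin moved up by 100 bp the change was -17.8 points in each population, called in differentiated cells alone, and with the bin moved down it was -8.75 points in ISCs and -5.58 in differentiated cells, called in neither. The change in differentiated cells was -26.7 points (-35.9 to -17.3, Fisher's exact test, adjusted p = 5.82e-06), while the pooled flanks, which include the methylated CGI, changed by -0.566 points in ISCs and by -2.12 in differentiated cells.

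The largest ISC losses of the window lay at its far end and belong by position to the neighbouring gene. Adjacent bins from chr5:122308801 to chr5:122309200 overlapped the 3' UTR of Cux2, a homeobox transcription factor gene, and lay 5347 and 5218 bp from the nearest CGI. With the first bin moved up by 100 bp its ISC change was -55.4 points and called, with it moved down -18.8 points and not called, and with thinned calls -40.9 points and not called. It was at 50% (52 calls, 36.9 to 63.1%) in ISCs at P0 and at 0 of 22 calls at P21, which allows up to 13.6% by the limit of 3 counts and 14.9% by the Wilson interval. In differentiated cells it went from 30% (60 calls, 19.9 to 42.5%) to 2.56% (39 calls, 0.454 to 13.2%), and the change of -27.4 points (-40.1 to -12.8) was called by Fisher's exact test (adjusted p = 0.0189). The second went from 64.9% (74 calls, 53.5 to 74.8%) to 18.8% (80 calls, 11.7 to 28.7%) in ISCs and from 62.5% (64 calls, 50.3 to 73.3%) to 16.4% (61 calls, 9.16 to 27.6%) in differentiated cells. Its change of -46.1 points in differentiated cells (-59.1 to -29.5, Fisher's exact test, adjusted p = 2.40e-05) was the largest loss with age there among the 241 bins. Both strands of both bins were lower at P21 in both populations. In the bins on either side the ISC level went from 30.1% to 19.4% and from 85.3% to 74.7%.

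Of the 9 Fam109a gains past 15 points in ISCs 3 were called there and none of these was called in differentiated cells, and the difference between the populations was not tested. The gain in intron 3 is shown because it was the largest ISC gain of the 241 bins, and its 7 CpGs are in capitals, read on the plus strand of mm9.
Fam109a chr5:122301801-122302000: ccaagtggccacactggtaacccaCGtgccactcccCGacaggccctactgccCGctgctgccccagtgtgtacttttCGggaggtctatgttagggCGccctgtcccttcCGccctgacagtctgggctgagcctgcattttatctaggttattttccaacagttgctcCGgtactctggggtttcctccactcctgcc
ISCs went from 37.1% (116 calls, 28.8 to 46.1%) to 70.1% (117 calls, 61.3 to 77.6%) in this bin, 428 bp before the methylated CGI. Differentiated cells went from 40.1% (237 calls, 34.1 to 46.4%) to 53.2% (267 calls, 47.2 to 59.1%), a change of 13.1 points (4.37 to 21.5) that was not called (Fisher's exact test, adjusted p = 0.0856), although the calls of its bottom strand alone were (18.3 points). On the bottom strand alone the ISC gain was 24.9 points and not called. On the top strand it was 53.2 points and called, beside 4.99 points in differentiated cells, not called. All 7 CpGs were higher at P21 in ISCs, from 6.06 to 46.0 points, and 4 of 7 were higher in differentiated cells. The 3 CpGs nearest the CGI gained 45.8, 25.7 and 46.0 points in ISCs and 37.7, 20.8 and 25.4 points in differentiated cells, while the other 4 stayed within 2.92 points in differentiated cells. The bins on either side gained 16.2 and 18.0 points in ISCs and lost 4.20 and 4.44 points in differentiated cells. Upstream, at chr5:122296001-122296200, ISCs rose from 43.1% (65 calls, 31.8 to 55.2%) to 75.4% (118 calls, 66.9 to 82.3%) and differentiated cells had 63.3% (229 calls) and 62.3% (159 calls). With this bin moved up by 100 bp the ISC gain was 27.3 points and called, with -0.207 points in differentiated cells, while with it moved down the signs turned, to -10.6 points in ISCs and 8.99 in differentiated cells. With thinned calls the ISC gain of this bin was 29.2 points and not called. The CGI bin at the border of exon 4 rose in ISCs from 84.4% (96 calls) to 100% (97 calls) beside 95.3% and 91.7% in differentiated cells. Of its 6 CpGs, 1 gained 57.1 points (14 and 16 calls), 2 did not change, and the ISC change was 27.6 points and called with the bin moved down by 100 bp, 2.94 points with it moved up and 5.23 points with it widened. In both bins ISCs at P0 had the lowest level of the 4 libraries.

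Adamtsl5 (ENSMUSG00000043822.11) lies on the minus strand of chr10:79801855-79811157, with 13 exons in its main transcript and 85 tested bins. Its called ISC loss and its called ISC gain outside CGIs were neighbours over intron 6, exon 6 and intron 5. Both are shown on the plus strand of mm9 with CpGs in capitals, since their ISC changes were opposite in these bins, though not in bins shifted by 100 bp.
Adamtsl5 chr10:79807401-79807600: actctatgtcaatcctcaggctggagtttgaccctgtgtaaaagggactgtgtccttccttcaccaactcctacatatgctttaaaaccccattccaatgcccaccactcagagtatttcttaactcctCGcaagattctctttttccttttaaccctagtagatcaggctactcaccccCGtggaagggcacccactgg
Adamtsl5 chr10:79807601-79807800: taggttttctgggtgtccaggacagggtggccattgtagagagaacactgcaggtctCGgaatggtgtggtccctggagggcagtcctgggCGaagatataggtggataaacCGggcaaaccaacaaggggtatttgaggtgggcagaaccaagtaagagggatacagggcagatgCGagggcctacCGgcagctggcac
In the first bin ISCs went from 32.3% (65 calls, 22.2 to 44.4%) to 8.86% (79 calls, 4.36 to 17.2%), and differentiated cells from 35.8% (67 calls, 25.4 to 47.8%) to 17.7% (96 calls, 11.4 to 26.5%). The change of -18.1 points in differentiated cells (-31.7 to -4.45) had the sign of the ISC change and was not called (Fisher's exact test, adjusted p = 0.152). In the second bin ISCs went from 10.7% (112 calls, 6.24 to 17.8%) to 31.2% (125 calls, 23.7 to 39.8%), while differentiated cells had 21.4% (187 calls, 16.1 to 27.8%) and 12.2% (164 calls, 8.03 to 18.1%), a change of -9.20 points (-16.8 to -1.29, Fisher's exact test, adjusted p = 0.240). The ISC gain rested on 1 of the 5 CpGs, which went from 27.3% (22 calls) to 66.7% (39 calls), and the other 4 moved between -3.57 and 5.95 points. With the second bin moved by 100 bp up or down the ISC change was -1.07 or -3.08 points. With the first bin moved up or down it was -3.08 or 0 points, and its ISC loss was gone when it was widened by 100 bp on either side (0.201 points). The ISC loss was read on the bottom strand (35% of 60 calls to 3.08% of 65 calls), while the top strand went from 0 of 5 calls to 35.7% of 14 calls. Both CpGs were lower at P21 in ISCs and 1 of them in differentiated cells. At P21 the second bin was called as lower in differentiated cells than in ISCs, by 19.0 points.

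In the 3' UTR of Adamtsl5, at chr10:79803601-79803800, the populations moved past 15 points in opposite directions. ISCs had 46.9% (49 calls, 33.7 to 60.6%) and 71.2% (66 calls, 59.4 to 80.7%), and differentiated cells 54.5% (55 calls) and 36.5% (63 calls, 25.7 to 48.9%). Neither change was called (Fisher's exact test, adjusted p = 0.398 in differentiated cells), and the gap of -34.7 points between differentiated cells and ISCs at P21 was. The adjoining CGI over exons 8 to 13 had 11.6% at P0 and 16.1% at P21 in ISCs and 13.8% and 16.4% in differentiated cells. Its bin in the coding part of exon 13, at chr10:79804001-79804200, went from 46.7% (227 calls) to 63.1% (320 calls) in ISCs and from 59.3% (707 calls) to 67.2% (545 calls) in differentiated cells, and its ISC change was 20.8 points and called with the bin moved up by 100 bp, and 0.559 points with it moved down. The bin before it, over exon 12 and intron 12, was called as a gain in differentiated cells, from 21.5% (298 calls, 17.2 to 26.5%) to 39.4% (282 calls, 33.8 to 45.2%), by 17.9 points (10.4 to 25.1, Fisher's exact test, adjusted p = 0.000335), beside 25.7% and 35.3% in ISCs.

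Mif (ENSMUSG00000033307.6) lies on the minus strand of chr10:75322098-75322995 with 3 exons, its whole length inside 1 CGI, and with no other gene in the 39-bin window. Its only ISC loss past 15 points was upstream, at chr10:75326401-75326600, from 10 of 10 calls to 84.6% of 39 calls, beside 84.0% and 85.0% in differentiated cells. The bins shown are the called ISC gain downstream and the bin upstream called in differentiated cells, with CpGs in capitals on the plus strand.
Mif chr10:75320001-75320200: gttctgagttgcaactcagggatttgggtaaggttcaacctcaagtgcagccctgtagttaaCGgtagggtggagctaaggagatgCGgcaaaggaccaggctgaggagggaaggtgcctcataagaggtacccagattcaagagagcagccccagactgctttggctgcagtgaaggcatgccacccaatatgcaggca
Mif chr10:75323801-75324000: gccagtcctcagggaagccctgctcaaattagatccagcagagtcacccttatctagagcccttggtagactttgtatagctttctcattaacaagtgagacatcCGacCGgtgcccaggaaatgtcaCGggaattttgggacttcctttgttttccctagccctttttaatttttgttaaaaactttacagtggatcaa
The downstream bin went from 53.3% (75 calls, 42.2 to 64.2%) to 78.2% (78 calls, 67.8 to 85.9%) in ISCs and from 52.8% (176 calls, 45.5 to 60.1%) to 65.3% (144 calls, 57.2 to 72.6%) in differentiated cells. With thinned calls the ISC gain kept its size (24 points) but not its call. The change in differentiated cells, of 12.4 points (1.59 to 22.8), had the same sign and was not called (Fisher's exact test, adjusted p = 0.274). Closer to the gene, at chr10:75321401-75321600, the level went in ISCs from 21.4% (28 calls) to 47.2% (36 calls) and in differentiated cells from 38.5% (78 calls) to 56.8% (44 calls), with wide intervals of the change (2.13 to 45.1 and 0.0236 to 35.2 points). Neither change was called (Fisher's exact test, adjusted p = 0.385 in differentiated cells). The gain in differentiated cells was read on the bottom strand, and the top strand had only 7 calls at P0 and 1 at P21. In the upstream bin ISCs stayed at 42.6% (108 calls, 33.7 to 52.0%) and 46.4% (97 calls, 36.8 to 56.3%). Differentiated cells were high at P0 alone, with 68.8% (138 calls, 60.7 to 76.0%) against 44.9% (78 calls, 34.3 to 55.9%) at P21. That fall of 24.0 points (change of -36.7 to -10.3) was called (Fisher's exact test, adjusted p = 0.0279), and so was the gap of 26.2 points between the populations at P0.

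Zbtb22 (ENSMUSG00000051390.9) lies on the plus strand of chr17:34052849-34056269 with 2 exons, between Daxx and the main transcript of Tapbp, genes of a histone chaperone and of the antigen-loading protein tapasin. The annotated span of Tapbp, outside its main transcript, also overlaps Zbtb22, including its start and 3' UTR. Of the 53 tested bins of the Zbtb22 window none inside Zbtb22 passed 15 points in ISCs. The largest ISC change was about 5 kb upstream, in intron 2 and exon 3 of Daxx, and is shown with its CpGs in capitals. With calls thinned to the lowest library the ISC change kept its size (-34.8 points) but not its call. It was -2.82 points with the bin moved up by 100 bp and -15.4 points with it moved down, called in neither, and -5.43 points with the bin widened.
Zbtb22 chr17:34048001-34048200: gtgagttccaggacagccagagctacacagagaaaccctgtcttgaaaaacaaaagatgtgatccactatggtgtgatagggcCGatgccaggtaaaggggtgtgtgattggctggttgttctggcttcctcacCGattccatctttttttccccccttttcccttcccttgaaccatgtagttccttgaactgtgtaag
ISCs had 25 of 25 calls methylated at P0 and 65.2% (23 calls, 44.9 to 81.2%) at P21, and differentiated cells 90.2% (41 calls, 77.5 to 96.1%) and 73.9% (46 calls, 59.7 to 84.4%). The change in differentiated cells was -16.3 points (-31.7 to 0.209) and was not called (Fisher's exact test, adjusted p = 0.379). Both CpGs were lower at P21 in both populations, although 1 of them by only 1.77 points in differentiated cells. The neighbouring bin at chr17:34047801-34048000 was 32.8 points lower at P21 in ISCs (81.8% to 49.0%) and was 22.9 points higher in differentiated cells (64.6% to 87.5%), neither of them called. Only 1 of its 3 CpGs had at least 5 calls in every library, and that one had changes of 0 (ISCs) and -3.70 points (differentiated cells). On the top strand alone the ISC change of the bin was -6.82 points. In Tapbp intron 3 ISCs went from 56.9% (51 calls) to 80.3% (76 calls), beside 72.2% and 78.6% in differentiated cells. This ISC change was not called, and it was 4.76 points on the top strand (27 and 35 calls) and 42.0 points on the bottom strand (24 and 41 calls).

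Inside Zbtb22, only the 3' UTR bin at the edge of a CGI was called with age, in differentiated cells. Its level there was 10.8% (37 calls, 4.29 to 24.7%) at P0 and 50% (24 calls, 31.4 to 68.6%) at P21 (Fisher's exact test, adjusted p = 0.0332), while ISCs had 36.6% (93 calls) and 31.9% (113 calls). Only 1 of its 7 CpGs had at least 5 calls in every library, and that one was at 0 in differentiated cells at both ages, so the called gain rested on CpGs with fewer than 5 calls in some library.

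**Figure D3:**
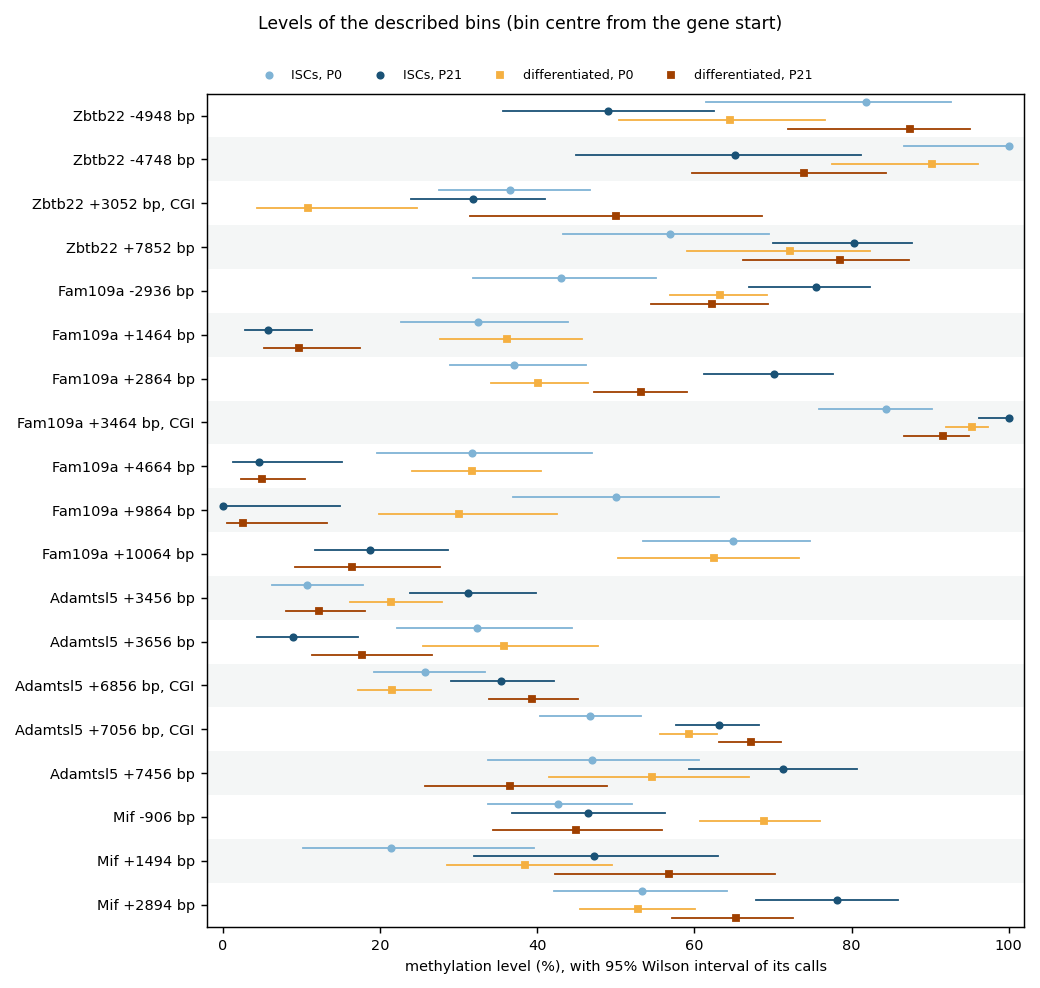
Methylation level in percent (x axis) of the bins described, in each of the 4 libraries, with 95% Wilson intervals as horizontal bars. Bins are named by the gene of their window and by the distance of their centre from the gene start in bp. The losses of the Fam109a window at 1464, 4664, 9864 and 10064 bp show both P21 libraries below both P0 libraries. Those at 9864 and 10064 bp lie past Fam109a, over the 3' UTR of Cux2.

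Around the bins reported here, the pooled calls of the flanks within 1000 bp changed in ISCs by -10.1 to 10.1 points and in differentiated cells by -15.1 to 5.96 points, leaving aside the Daxx intron 2 bin at chr17:34047801 and the Mif loss at chr10:75326401, whose flanks were not computed. The mean of the changes of the flank bins, added after the data were seen, lay between -9.69 and 6.70 points in ISCs and between -15.5 and 4.71 points in differentiated cells. The bin around exon 2 of Fam109a stood at -19.4 points relative to the change of its flanks in ISCs and at -20.1 in differentiated cells, and the bins in the Cux2 3' UTR at -45.2 and -44.2 points in ISCs and at -12.4 and -33.4 in differentiated cells. The flanks of these bins changed by -15.1 and -12.7 points in differentiated cells. One flank bin there was 31.1 points higher at P21 in ISCs. For the Daxx bin the pooled flanks were higher by 9.77 points in ISCs at P21, while the changes of the flank bins had a mean of -6.16 and a highest value of 6.16 points, so its pooled flanks give no direction. In differentiated cells the pooled value was 2.46 and the mean 4.71 points. At most 3 of the flanking bins of these bins passed 15 points in its direction in ISCs, and this was at the gain in Fam109a intron 3 and the CGI bin after it.

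**Figure D4:**
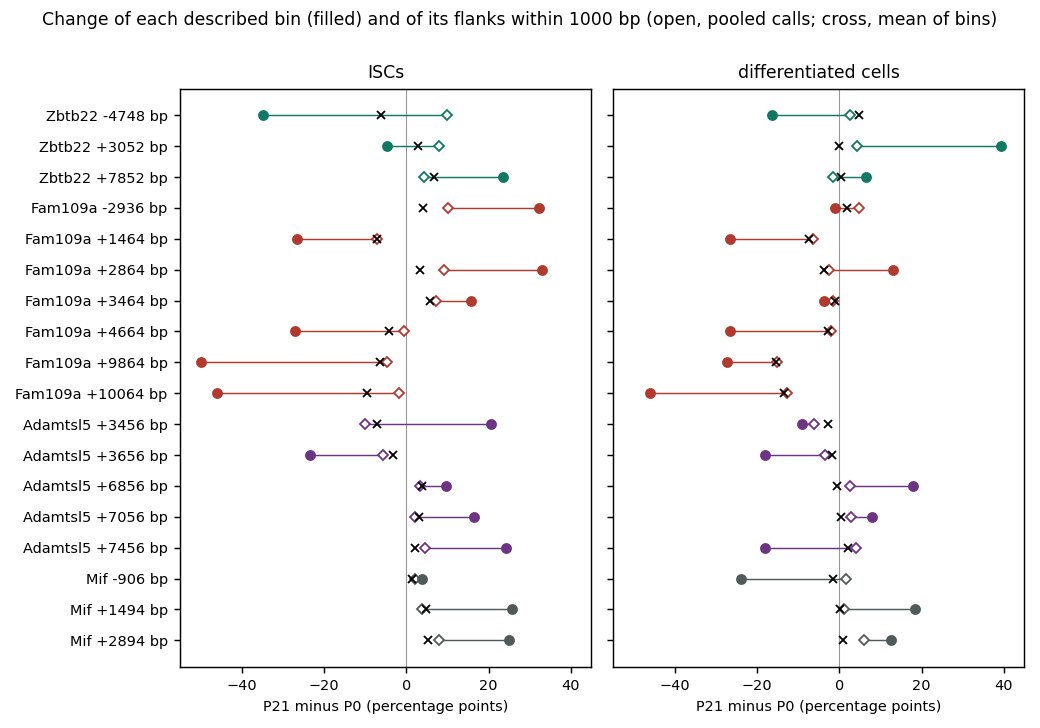
Change from P0 to P21 in percentage points (x axis) of the described bins other than those at chr17:34047801 and chr10:75326401 (filled circles) and of the tested bins within 1000 bp on either side (open diamonds for pooled calls, crosses for the mean of the bins' changes), in ISCs (left) and differentiated cells (right), coloured by gene. Rows are bins named by the distance of their centre from the gene start. Bins were chosen in part for the size of their ISC change. In differentiated cells the circles lie between -46.1 and 39.2 points and the diamonds between -15.1 and 5.96.

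The study chose these genes for changes near CGIs, so the features of the bins that moved, their distance to a CGI included, are a description. A median of 3 CpGs was found among the 17 losses and 4 among the 19 gains. It was 4 in the other 144 bins outside CGIs and 11 in the other 61 CGI bins. The median GC content was 51% in losses, 55% in gains and 54% in the other bins outside CGIs. The gains include 3 CGI bins, here and in the values below, while all losses lay outside CGIs. Losses lay a median of 860 bp and gains 628 bp from the nearest CGI, beside 1252 bp. The bins that moved had fewer calls, with medians in ISCs of 59 for losses and 65 for gains at P0 beside 83 in the other bins outside CGIs, and of 63 and 71 beside 93 at P21. In differentiated cells at P0, 11 of the 17 losses and 15 of the 19 gains had a level between 20 and 80%, 64.7% and 78.9%, beside 27.1% of the other bins outside CGIs. That library is outside the ISC contrast, but whether it entered the selection of the genes is not stated. A bin with a level near either end can pass the limit of 15 points in 1 direction only.

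Bins were also compared between differentiated cells and ISCs of the same age. At P0 1 of the 241 bins was called, the upstream Mif bin, beside 20700 of the 4076373 autosomal bins (0.508%). At P21 2 of the 241 bins were called, both in Adamtsl5 and both lower in differentiated cells, beside 7412 autosomal bins (0.182%). These comparisons share the ISC libraries with the selecting contrast.

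Some CpGs lay alone in bins that were not tested. A CpG in intron 3 of Fam109a, at position 122301321, went from 52.6% to 15.8% in ISCs and from 38.2% to 15.4% in differentiated cells, and one upstream of Adamtsl5, at position 79815185, went from 73.3% to 33.3% and from 78.6% to 7.69%, each with 13 to 55 calls. The other 3 that passed 15 points in ISCs did not share this pattern. One past the end of Adamtsl5 changed by 20 points in ISCs and 5.56 in differentiated cells, and those in the Mif window by -17.5 and 1.30 points downstream and by 25.5 and -8.93 points upstream. Over all CpGs with 10 calls, 42 of 278 in the Fam109a window lost more than 15 points in ISCs (15.1%, beside 10.4% of all autosomal CpGs) and 37 of the 42 were lower in differentiated cells too. The counts of losses were 19 of 282 (6.74%) and 11 for Zbtb22, 26 of 389 (6.68%) and 13 for Adamtsl5, and 5 of 155 (3.23%) and 2 for Mif. Gains past 15 points were 29 in Fam109a, 18 in Zbtb22, 44 in Adamtsl5 and 11 in Mif (10.4%, 6.38%, 11.3% and 7.10%, beside 10.3% of all CpGs), of which 22, 13, 27 and 7 were higher in differentiated cells. Over all autosomal CpGs 61.9% of such losses and 56.0% of such gains had the same sign there.

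Genes of the same families and pathways were read in the same way, from gene lists drawn from general knowledge. Of Mif relatives and receptors, 6 genes held 418 bins with 13 called losses and 3 called gains in ISCs and 16 and 5 in differentiated cells. They include Ddt, the closest relative of Mif, with no bin called in ISCs and 1 gain in differentiated cells among 39 bins. The receptor partner Cd44 had 8 losses and 2 gains in ISCs and 8 losses in differentiated cells among 179 bins. The ADAMTS-like genes had more called gains than losses, with 24 losses and 54 gains among 2841 bins in ISCs and 34 and 50 in differentiated cells. Of these ISC gains 34 lay in Thsd4 alone, which held 1378 of the bins. The paralogue of Fam109a, Fam109b, had 3 losses and 4 gains among 62 bins in ISCs, and Inpp5b, an inositol phosphatase that binds it, 2 and 3 among 206. Appl1 and Rab5a, an adaptor and a GTPase of early endosomes, had no called bin among 79 and 53. Of the BTB zinc finger genes, Zbtb38, a methyl-CpG-binding factor, had 10 losses and 8 gains among 266 bins in ISCs, and the 7 genes together 18 and 15 among 818. Of all autosomal bins 1.48% were called losses and 1.07% called gains in ISCs, and 1.86% and 0.992% in differentiated cells. As shares of their bins, the counts stood on both sides of these values.

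By the mean level outside CGIs in the 4 libraries, the genes most like each member among 18113 were Tgoln1, D630039A03Rik and Prhoxnb for Fam109a (distances of 1.27 to 2.48 points), 1700020L24Rik, Reep4 and Dpf1 for Adamtsl5 (0.615 to 0.799), Pias3, 4930432M17Rik and P2ry13 for Mif (0.718 to 0.854), and 1700023F06Rik, Tbxa2r and Gpr124 for Zbtb22 (0.253 to 0.597). Fam109a had the most distant nearest gene of the 4. Its mean fell by 2.44 points in ISCs and 6.53 in differentiated cells. That of Tgoln1 fell too, from 49.6% to 47.8% in ISCs and from 50.6% to 45.6% in differentiated cells. The distance is taken over levels, not changes.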

How the data were processed

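Whole-genome bisulfite libraries, 1 for each of 2 populations at 2 ages, gave 4 files. The authors aligned reads to mm9 with Bismark and Bowtie and deposited, for each cytosine position, the count of all calls, the count of methylated calls and their fraction, which was not used here. Duplicate removal and versions are not stated. Both strands of a CpG were summed, and 200-bp bins with at least 2 CpGs and 10 calls in every library were tested on autosomes. A level is methylated calls over all calls. Intervals are 95% Wilson intervals for levels and Newcombe intervals for differences.

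Libraries were compared with two-sided Fisher's exact tests per bin, adjusted by the Benjamini-Hochberg method over all 4076373 bins, with a call at an adjusted p below 0.05 and a difference above 15 points. CGIs were stretches with at least 25 CpGs within 500 bp, and a bin with 100 bp of one was a CGI bin. Flanks were the tested bins within 1000 bp on either side. Bins were described if called with age, or if they had the largest loss or gain in ISCs at 20 calls or moved past 15 points in opposite directions in the populations; the largest called CGI bin and the largest bin outside CGIs called in differentiated cells only were added for each gene, and further bins were chosen after their values were seen. Likeness between genes was the Euclidean distance of mean levels outside CGIs over the 4 libraries, for genes with at least 20 such bins. The 4 genes and all lists were chosen with earlier results of these data known. The steps were tested on simulated data. Python 3.11.15, numpy 2.4.6, numba 0.67.0, scipy 1.17.1 and pandas 2.3.3 were used. Bin size, bin position, minimum calls, minimum CpGs, strand, depth, the point threshold, CGI definition and window were varied. Some bins that met the rule are not reported here.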

Additional observations from a re-analysis of the deposited data

Results flagged for a closer look

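Bins at 2 places moved past 15 points in opposite directions in the populations. The Zbtb22 window bin at chr17:34047801-34048000, in intron 2 of Daxx, was lower at P21 in ISCs (-32.8 points) and higher in differentiated cells (22.9 points), with an ISC change of -6.82 points on the top strand alone. The bin in the 3' UTR of Adamtsl5 at chr10:79803601-79803800 was higher at P21 in ISCs (24.3 points) and lower in differentiated cells (-18.0 points). Whether the changes with age differed between the populations was not tested, and neither bin was called with age in either population. At P21 the gap between differentiated cells and ISCs was called in the Adamtsl5 bin (-34.7 points) and not in the Daxx bin (38.5 points, Fisher's exact test, adjusted p = 0.0914).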

How the results depend on the processing

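No paired analysis was possible because each group had 1 library, so the groups compared share fewer than 2 replicate numbers. With the settings of the report, 36 bins of the 4 windows passed 15 points in ISCs and 13 were called, 23 passed and 9 were called in differentiated cells, and 25 of the 36 had the same sign in both populations. In that order the counts were 12, 8, 7, 4 and 7 with at least 4 CpGs per bin, 8, 5, 2, 2 and 5 above 30 points, 11, 7, 9, 4 and 11 with 400-bp bins, and 17, 8, 7, 5 and 11 within the genes alone. A minimum of 40 calls left 10 bins past 15 points in differentiated cells. Called bins in ISCs and in differentiated cells were 8 and 4 after thinning each bin to its lowest library, 8 and 4 on the top strand and 5 and 5 on the bottom strand. The mean level of all bins over the 4 libraries, 56.7% for Zbtb22, 47.3% for Fam109a, 47.8% for Adamtsl5 and 64.5% for Mif, was 51.2%, 46.2%, 41.6% and 55.3% with every call weighted equally and 57.1%, 45.3%, 46.7% and 62.6% at a minimum of 20 calls. With bins shifted by 100 bp it was 48.0% for Fam109a, 46.0% for Adamtsl5 and 62.7% for Mif. Counts by CGI status stayed within 1.5 times under 2 other CGI definitions. Among the described bins 8 of 130 alternative values changed sign in ISCs and 6 of 130 in differentiated cells. The sign turned for the Tapbp bin in differentiated cells on the bottom strand (-3.22 points), for the bin upstream of Fam109a shifted down by 100 bp (-10.6 points in ISCs and 8.99 in differentiated cells) and in differentiated cells when widened (1.79) or as a mean of CpGs (0.174), for the Adamtsl5 loss in ISCs in a widened bin (0.201), for the adjacent Adamtsl5 gain in ISCs shifted up (-1.07) or down (-3.08), for the Daxx intron 2 bin in differentiated cells shifted up (-3.14) or read on its 1 CpG with 5 calls in every library (-3.70), for the Zbtb22 3' UTR bin in ISCs on the bottom strand (2.14), thinned (4.17) or read on its 1 such CpG of 7 (23.1), and in ISCs for a bin not reported here. In differentiated cells 24 alternative values lost the call, all of them at the 9 bins called there. Only tested alternatives at these 9 bins could lose it, so the 130 values are not the base of the 24. One bin, the gain in Fam109a intron 3, was called on the bottom strand alone (18.3 points). Single CpGs had a median of 15 to 37 calls.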
